A study of Mus musculus with 52 samples.

Results

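The cytosolic heat shock genes described here are 10 genes, Hsf1, Hspa1a, Hspa1b, Hspa8, Hspa4l, Hsph1, Dnajb1, Hsp90aa1, Hsp90ab1 and Hspb1, chosen by name among the 21999 genes of each bulk expression table. All 10 passed the filter on low counts in both experiments. The study measured the RNA of the suprachiasmatic nucleus (SCN), the hypothalamic clock that receives light signals from the retina, in male mice of 11 to 12 weeks. Each bulk library pooled 6 pairs of SCN. Whether the libraries of a group came from separate animals is not given in the sources used here, so that p-values measure the spread between libraries, which may be technical in part. Light began at circadian time (CT) 17, in the subjective night.

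In the light-pulse experiment all mice were wild type. Its groups were dark controls at CT17 (4 libraries), light of 0.5 h (4), 1 h (2), 3 h (2) and 6 h (2), and dark controls at CT23 (2), which match the end of the 6 h pulse. No dark group matched the end of the 0.5 h, 1 h or 3 h pulse. In the Npas4 experiment wild-type littermates and Npas4-/- mice, for which the labels name no restriction to a cell type, were kept in the dark or given 1 h of light from CT17, with 3 libraries in each of the 4 groups. NPAS4 is a neuronal transcription factor induced by activity. The labels name no agent other than light in either experiment.

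Heat shock proteins are chaperones that bind unfolded or newly made proteins. In the cytosol, an HSP40 protein such as the product of Dnajb1 hands a client to an HSP70 and triggers its ATPase, an HSP110 such as HSPH1 swaps the nucleotide, and many clients pass on to HSP90. The stress-inducible members are textbook targets of heat shock factor 1 (HSF1), which binds repeats of the bases nGAAn in their promoters, whereas Hspa8 and Hsp90ab1 are made at high levels in most resting cells.

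The 12 light-pulse libraries without an s after their number held 12477382 to 15369985 counted reads, the 4 libraries numbered 1s and 2s at CT17 and 0.5 h held 27413860 to 30149286, and depths in the Npas4 experiment were 26638939 to 32097975. The 10 genes took 0.348% to 0.472%, 0.359% to 0.390% and 0.375% to 0.603% of these counts. What the s stands for is not given in the sources used here. Each light-pulse comparison is therefore given with a term for the batch that the labels name (the batch term). It is given again with a term for the s (the s term). The 1 h, 3 h and 6 h libraries were all in batch 2 and without an s. Libraries at CT17 and 0.5 h were in batch 1 if without an s and in batch 2 if with one. CT23 library 1 was in batch 1 and library 2 in batch 2. No CT17 library thus matched those at 1 h or 3 h in both. Passing with both terms therefore does not separate light from batch and kind of library there. At 0.5 h all 7 light-response reference genes fixed for the label check, among them Fos and Egr1, were higher with both terms. The SCN neuron markers were present in every group, with summed levels from 967 to 1368 CPM (counts scaled to a common library size) in the light-pulse experiment and from 1402 to 3038 CPM in the Npas4 experiment.

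Reads of Npas4 itself were counted in all 12 libraries of its experiment. Npas4 stood at 8.64, 8.20 and 8.34 CPM in the wild-type dark libraries, at 13.7, 10.7 and 14.0 after light, at 5.27, 10.1 and 10.4 in the dark libraries labelled null and at 4.55, 7.63 and 5.19 in those labelled null after light. The dark groups overlapped, and after light each library labelled null lay below each wild-type library (log2 change -1.14 ± 0.24, adjusted p = 0.0663 by edgeR's quasi-likelihood test). Which part of Npas4 was deleted is not given in the sources used here, so these whole-gene counts do not check the genotype labels.

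Compared per length of transcript, as RPKM, which divide reads by transcript length and depth, the genes differed widely in the dark controls at CT17. Hsp90ab1 was at 535 to 655 RPKM and Hspa8 at 160 to 171. Hsph1 (66.7 to 76.8) and Hsp90aa1 (68.6 to 76.4) followed and overlapped each other. Dnajb1 (31.8 to 39.1), Hspa4l (29.7 to 31.7) and Hsf1 (23.1 to 27.3) came next, with Dnajb1 just above Hspa4l. The lowest were Hspa1b (1.23 to 2.04), Hspa1a (1.19 to 1.48) and Hspb1 (0.585 to 1.71), which overlapped. The Npas4 experiment had the same upper ranks but for Hsp90aa1, which was at 162 to 273 RPKM over its 12 libraries against 62.9 to 89.1 over the 16 light-pulse libraries, above Hsph1 in each library. Hspb1 was also at a higher level there, at 2.11 to 5.05 RPKM against 0.463 to 2.12. The experiments were separate, so these differences between them have no test.

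The promoter windows of 6 of the 10 genes were in the RefSeq table of build GRCm38.p6, the assembly of the mm10 coordinates of the deposited files. Each window runs from 250 bases before to 50 bases after an annotated start. The following sequences are shown because they hold the element that HSF1 binds at the stress-inducible genes, beside the window of Dnajb1, the only one of the 10 genes called with light in both experiments. Capitals mark pairs of inverted nGAAn units, searched as GAANNTTC and TTCNNGAA in the window (both letter strings are their own complement, so that the search covers both strands, and pairs may overlap).
Hspa1a, chr17:34972107-34972406, minus strand: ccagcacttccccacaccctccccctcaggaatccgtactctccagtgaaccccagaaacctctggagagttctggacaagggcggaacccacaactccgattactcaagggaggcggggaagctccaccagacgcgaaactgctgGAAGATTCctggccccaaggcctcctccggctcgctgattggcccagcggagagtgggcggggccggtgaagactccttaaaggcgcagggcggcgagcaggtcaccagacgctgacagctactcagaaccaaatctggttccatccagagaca
Hspa1b, chr17:34959189-34959488, minus strand: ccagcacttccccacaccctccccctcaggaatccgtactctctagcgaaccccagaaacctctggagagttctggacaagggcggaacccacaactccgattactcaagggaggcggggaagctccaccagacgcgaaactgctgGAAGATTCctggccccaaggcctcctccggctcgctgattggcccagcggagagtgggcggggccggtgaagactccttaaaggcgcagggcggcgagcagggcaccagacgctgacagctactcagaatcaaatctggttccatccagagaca
Hsph1, chr5:149636287-149636586, minus strand: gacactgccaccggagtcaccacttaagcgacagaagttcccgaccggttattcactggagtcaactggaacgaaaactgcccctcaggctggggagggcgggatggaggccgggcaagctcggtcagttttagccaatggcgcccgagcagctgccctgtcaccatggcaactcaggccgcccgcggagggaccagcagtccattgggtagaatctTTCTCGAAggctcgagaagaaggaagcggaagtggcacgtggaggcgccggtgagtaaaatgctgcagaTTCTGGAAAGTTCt
Hspb1, chr5:135887669-135887968, plus strand: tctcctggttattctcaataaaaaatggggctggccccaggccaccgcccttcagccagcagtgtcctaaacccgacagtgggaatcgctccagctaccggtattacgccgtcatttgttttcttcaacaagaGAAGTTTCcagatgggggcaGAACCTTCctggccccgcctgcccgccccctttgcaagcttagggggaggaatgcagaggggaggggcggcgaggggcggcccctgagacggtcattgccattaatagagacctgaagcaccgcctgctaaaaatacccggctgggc
Dnajb1 had no such pair in either of its 2 windows, the second of which (chr8:83608298-83608597) lies inside the gene span (chr8:83608175-83612653). In its window at the start of the gene, the capitals mark instead the only match within that window to TGACG or its complement, the core of the cAMP response element that CREB binds.
Dnajb1, chr8:83607925-83608224, plus strand: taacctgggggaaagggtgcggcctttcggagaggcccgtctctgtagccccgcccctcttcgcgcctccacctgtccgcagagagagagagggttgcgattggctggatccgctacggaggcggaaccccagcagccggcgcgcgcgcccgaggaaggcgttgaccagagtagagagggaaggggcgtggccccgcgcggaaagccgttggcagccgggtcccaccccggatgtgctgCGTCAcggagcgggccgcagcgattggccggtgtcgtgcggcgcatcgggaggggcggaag

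Pairs of this kind were present in 15.1% of the 32851 windows of all genes, so that a pair alone is common. Hspb1 held 2 pairs, a count of 2 or more being present in 1.96% of windows. Hsph1 held 3, of which a pair overlaps another to form the triple TTCTGGAAAGTTC just after the start used for its window. A triple was present in 0.603% of windows. On the minus strand the gene span of Hsph1 begins at 149636498, upstream of that start, so the 3 pairs lie inside the span. The single pair GAAGATTC of Hspa1a and Hspa1b lies 104 bases before each start. The window of Hspa4l held no pair either. That window (chr3:40745363-40745662) lies inside the gene span, which begins at 40744500, and not at its first base. The TGACG core of Dnajb1, which begins 11 bases before the start, was present on either strand in 20.8% of windows and the full element TGACGTCA in 1.79%. The windows of Hspb1 and Hspa4l also held this core, printed in lower case for Hspb1, so it does not set Dnajb1 apart. A match describes the letters of the window and not binding. Hspa8, Hsp90aa1, Hsp90ab1 and Hsf1 are named only.

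The windows of Hspa1a and Hspa1b differed at 4 of 300 bases (98.7% identical), at C44T, T47C, T249G and C276T, where the base of Hspa1a stands first and positions are counted from the first base of the window. The genes lie 10120 bases apart on chromosome 17 and encode near-identical inducible HSP70 proteins. How reads matching both were counted is not stated, so the split between the pair is uncertain, and the pair was also tested as a sum. Hspa8 holds the small nucleolar RNA genes Snord14c, Snord14d and Snord14e within its span, and the other genes overlap no annotated gene. Processed pseudogenes of Hspa8, Hsp90aa1 and Hsp90ab1 are known, and how reads shared with them were counted is not given in the sources used here. Whether counting used the strand is not stated.

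Light raised Dnajb1, the HSP40 cochaperone (chr8:83608175-83612653), in both experiments. It was at 101 and 108 CPM in the dark libraries numbered 1 and 2 at CT17 and at 122 and 118 in those numbered 1s and 2s. After 0.5 h of light it was at 213, 206, 208 and 205 CPM in the same order. Each lit library lay above each dark library, and the spread within the lit group was small (208 ± 3.73 CPM, SD, n = 4, against 112 ± 9.30, n = 4). The increase was 0.89 ± 0.08 on the log2 scale (1.85-fold, adjusted p = 4.71e-06). With the s as a term it was 0.89 ± 0.07 (adjusted p = 1.14e-06), without the 4 s libraries 1.01, and it was called under each of 17 alternatives. Dnajb1 was the 1 gene of the 10 called at 0.5 h, where 0.441% of the 14524 genes tested were called (0.468% with the s term). Among the 62 genes called higher at 0.5 h it ranked 36th by size of change, with a median change of 1.04 over those genes. The median change of the 10 genes at 0.5 h was 0.09, beside -0.01 over all genes tested. It was 0.04 without CT17 library 1, 0.14 without CT17 library 2s, 0.17 without 0.5 h library 2s, 0.26 without the 4 s libraries, 0.05 with same-numbered libraries summed and -0.01 in batch 2 alone.

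At 1 h Dnajb1 was at 180 and 178 CPM, still above each dark library at CT17. The change was 0.66 ± 0.10 (adjusted p = 0.0011) with the batch term and 0.72 ± 0.09 (adjusted p = 0.000301) with the s term. At 3 h it was at 73.5 and 91.7 CPM, under each dark library, and at 6 h at 56.5 and 63.3. The step from 1 h to 3 h, between libraries of the same batch and without an s, was a decrease of 1.11 ± 0.11 on the log2 scale (0.462-fold, adjusted p = 4.08e-05, and 1.05e-05 with the s term), called under each of 13 alternatives. The 3 h pulse ended at a later circadian time than the 1 h pulse, and neither end had a dark group. Dark libraries at CT23 (85.1 and 72.8 CPM) overlapped those at 3 h. Light and circadian time therefore cannot be told apart over this step. Bulk RNA does not tell fewer cells of a type from less RNA per cell.

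Dnajb1 was thus lower at 3 h than in the dark at CT17, by 0.45 ± 0.10 on the log2 scale (adjusted p = 0.0122). With the s term the change was -0.40 ± 0.10 (adjusted p = 0.0386). Without the 4 s libraries it was -0.11 (adjusted p = 0.972), and the call was also lost without CT17 library 1s or 3 h library 1. Without the s libraries the batch term rested on the 2 CT23 libraries alone, since no other group was then in both batches. That fit therefore cannot decide the change at 3 h. The 3 h libraries (73.5 and 91.7 CPM) lay under CT17 libraries 1 and 2 (101 and 108). The dark controls at CT23 were at 85.1 and 72.8 CPM, below each dark library at CT17 (log2 change -0.51 ± 0.10, adjusted p = 0.0345), a difference of circadian time without light that did not pass with the s term (-0.46, adjusted p = 0.0752). Without the s libraries it was -0.30 (adjusted p = 0.999), in a fit whose batch term again rested on the CT23 libraries alone. Single dark libraries decided the call, since it was lost without CT17 library 1s, 2 or 2s or CT23 library 2. Against CT23 the 6 h libraries were lower by 0.41 ± 0.12 on the log2 scale, which did not pass the test (adjusted p = 0.159, and 0.104 with the s term), although both lay below both dark libraries. Without CT23 library 2 this difference was -0.59 and passed (adjusted p = 0.0353).

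**Figure D1:**
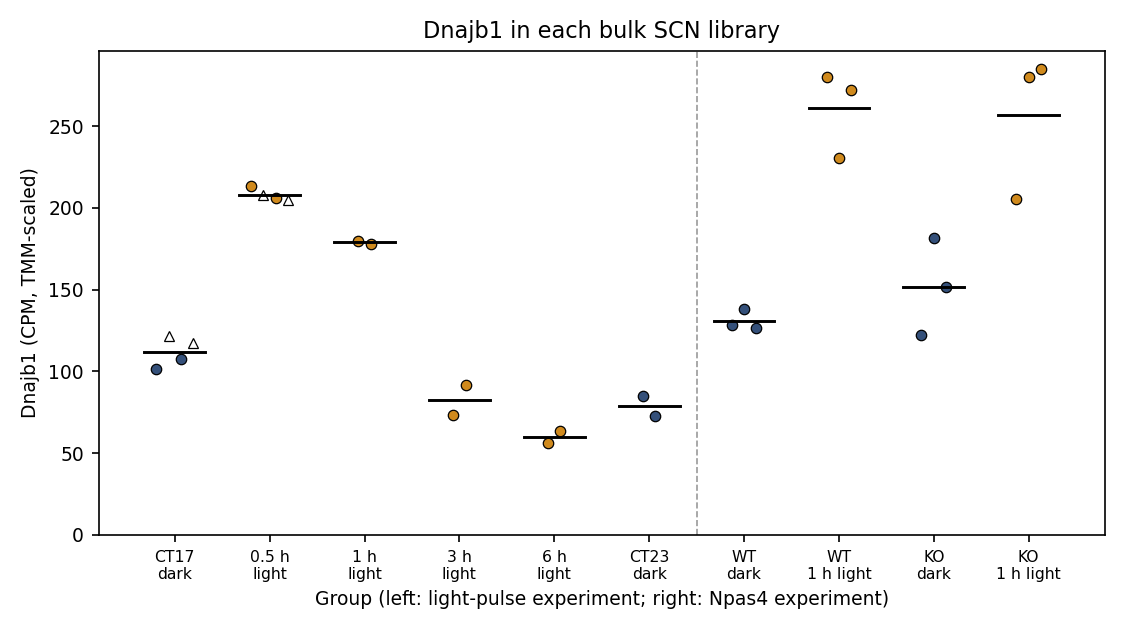
Dnajb1 in CPM scaled by the trimmed mean of M-values (TMM), for each library (points) and as group means (bars). Blue points are dark, orange points are lit, and open triangles are the 4 libraries numbered with an s. The lit libraries at 0.5 h (205 to 213 CPM) and 1 h (178 and 180) lie above the dark libraries at CT17 (101 to 122), and those at 3 h and 6 h (56.5 to 91.7) lie below them.

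In the Npas4 experiment Dnajb1 was at 129, 138 and 126 CPM in the wild-type dark libraries and at 280, 230 and 272 after 1 h of light. Lit and dark did not overlap, and the increase was 0.99 ± 0.15 on the log2 scale (1.99-fold, adjusted p = 0.0015), called under each of 11 alternatives. The dark libraries labelled null were at 122, 182 and 152 CPM and the lit ones at 206, 280 and 285. These groups did not overlap either, and the increase was 0.76 ± 0.15 (1.69-fold, adjusted p = 0.0173). In the libraries labelled null the call was lost when only these 2 groups were fitted and when null dark library 1 or 3 or null lit library 2 or 3 was left out (adjusted p from 0.00427 to 0.0970 over the fits without 1 library). Dnajb1 was the only one of the 10 genes called in each genotype, where 2.57% of 15001 genes were called in wild-type libraries and 1.56% in those labelled null. The median change of the 10 was 0.19 in wild-type and 0.22 in null libraries, beside -0.01 over all genes tested in each. Single libraries moved these medians. In wild-type libraries the median was 0.30 without dark library 2 and 0.09 without dark library 3. In null libraries it was 0.10 without dark library 1 or lit library 2, 0.45 without dark library 2 and 0.33 without lit library 1.

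The light response of Dnajb1 did not differ detectably between genotypes. The difference, null minus wild type, was -0.24 ± 0.20 on the log2 scale, with a 95% interval from -0.68 to 0.21, which spans a smaller and a slightly larger response in the null. None of the 10 genes passed this test (edgeR, 0 of 10 at an unadjusted p under 0.05, and 0 by DESeq2), and 0.0133% of all genes did. In the dark the difference of Dnajb1 between genotypes was 0.21 ± 0.15, with an interval from -0.10 to 0.53, and after light -0.02 ± 0.14, from -0.34 to 0.29. None of the 10 genes passed the test between genotypes in the dark (0 at an unadjusted p under 0.05, 0 by DESeq2, 0.753% of all genes called) or after light (2 at an unadjusted p under 0.05, 0 by DESeq2, 0.467% called). After light each null library lay above each wild-type library for Hspa1a, Hspa1b and Hsph1. The share of all genes that separated in this way is not given here. The 3 genes also varied together over the 12 libraries (r from 0.72 to 0.89), so they are not separate observations. The difference of Hspa1a was 0.58 ± 0.19 (interval 0.16 to 0.99, adjusted p = 0.431), that of Hspa1b 0.30 ± 0.15 (-0.03 to 0.62, adjusted p = 0.891) and that of Hsph1 0.31 ± 0.14 (interval bounds 0.0027 and 0.61, adjusted p = 0.835). Of the SCN neuron markers 3 of 9 were higher in the libraries labelled null, in the dark and again after light, and the part of this in the gene levels was not tested.

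**Figure D2:**
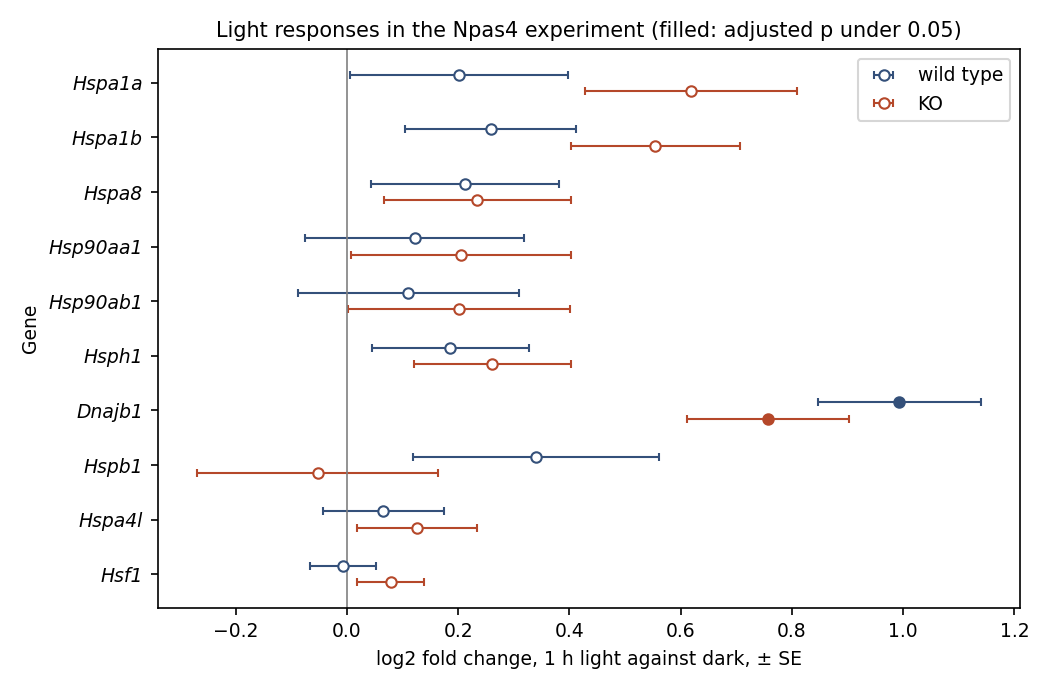
Log2 fold change after 1 h of light against dark in the Npas4 experiment, with the standard error, for wild-type littermates (blue) and mice labelled null (KO, red). Filled points passed an adjusted p under 0.05, which only Dnajb1 did, at 0.99 in wild-type and 0.76 in null libraries.

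Hsf1 encodes the factor that drives the heat shock response, mainly through changes of the protein rather than of its RNA. Its level stayed within a narrow range. At CT17 it was at 47.6, 47.2, 53.5 and 51.2 CPM in libraries 1, 2, 1s and 2s, at 0.5 h at 51.1, 46.5, 52.4 and 53.5, at 1 h at 49.6 and 46.9 and at 3 h at 53.4 and 45.5. The 6 h libraries were at 45.6 and 45.3 CPM and the CT23 libraries at 51.4 and 42.8. The lit and dark groups overlapped at 0.5 h, 1 h, 3 h and 6 h. In the Npas4 experiment the 12 values ran from 46.2 to 53.0 CPM. Over the 12 comparisons its log2 change lay between -0.11 and 0.09, and it passed none. At 0.5 h the interval of its change was -0.12 to 0.18, and in wild-type libraries after 1 h of light -0.14 to 0.12.

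Hspa1a and Hspa1b, the strongly stress-inducible HSP70 genes, were at low levels, with 23 to 132 reads per light-pulse library and 89 to 280 per Npas4 library. Hspa1a was at 3.52, 4.45, 3.77 and 3.64 CPM in CT17 libraries 1, 2, 1s and 2s and at 4.42, 6.18, 3.77 and 3.97 in the same order after 0.5 h of light. The groups overlapped, and the change was 0.23 ± 0.19 on the log2 scale, with an interval from -0.19 to 0.64. Hspa1b was at 4.50, 5.79, 3.35 and 4.29 CPM in the dark and at 7.32, 7.51, 2.57 and 2.66 after 0.5 h. The lit libraries without an s were thus the highest and those with an s the lowest of the 8, so that the fitted change was 0.01 ± 0.26 over all and 0.53 without the s libraries. Neither passed the test, and whether the s libraries came from the same animals is not stated.

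Hspa1b was at 4.49 and 5.15 CPM at 1 h, within the range of the CT17 libraries, and its fitted change at 1 h turned from 0.48 ± 0.34 with the batch term to -0.39 ± 0.30 with the s term, neither of which passed the test. It was at 1.83 and 3.49 at 3 h, at 1.89 and 2.17 at 6 h, and at 2.17 and 2.88 in the dark at CT23. The 3 h, 6 h and CT23 libraries overlapped, and apart from 3 h library 2 all of them lay below all 4 dark libraries at CT17. At 3 h the change against CT17 was -0.36 ± 0.36 with the batch term (adjusted p = 0.543) and -1.24 ± 0.32 with the s term (adjusted p = 0.0481). With the pair summed, the change with the s term was -0.86 ± 0.25 (adjusted p = 0.0818). Hspa1a was at 3.80 and 4.55 CPM at 1 h, 2.38 and 3.71 at 3 h, 1.75 and 3.36 at 6 h, and 2.97 and 3.22 at CT23. It passed none of the light-pulse comparisons with either term.

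Wild-type littermates of the Npas4 experiment had Hspa1a at 4.21, 5.97 and 3.75 CPM in the dark and at 5.29, 5.42 and 5.33 after light. In the libraries labelled null it was at 4.76, 6.63 and 4.17 CPM in the dark and at 6.88, 9.06 and 7.95 after light. The wild-type groups overlapped and the null groups did not. The change was 0.20 ± 0.20 in wild-type and 0.62 ± 0.19 in null libraries (adjusted p = 0.24), and the difference between them was 0.42 ± 0.27 with an interval from -0.18 to 1.01. Hspa1b was at 3.77, 4.13 and 3.28 CPM in wild-type dark libraries, at 4.35, 4.54 and 4.50 after light, at 3.75, 4.22 and 3.23 in null dark libraries and at 5.19, 6.598 and 4.64 after light. Lit and dark groups of Hspa1b did not overlap in either genotype. Its changes were 0.26 ± 0.15 (adjusted p = 0.738) and 0.55 ± 0.15 (adjusted p = 0.15), which did not pass the test. In an alternative fit with a term for the library number, Hspa1a and Hspa1b were both called in the null libraries.

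Hspa8, the constitutive HSP70 that also uncoats clathrin vesicles, was at 663, 687, 691 and 689 CPM in CT17 libraries 1, 2, 1s and 2s. After 0.5 h of light it was at 763, 798, 742 and 645 in the same order, after 1 h at 810 and 800, after 3 h at 696 and 747, after 6 h at 622 and 658, and at CT23 at 647 and 603. The 1 h libraries were the highest, and those at 0.5 h overlapped the dark libraries through library 2s. At 1 h the change was 0.28 ± 0.08 on the log2 scale (1.21-fold, adjusted p = 0.0397) with the batch term and 0.20 ± 0.08 with the s term (adjusted p = 0.384). The call was made in 3 of 15 alternatives.

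The call at 1 h in the light-pulse experiment therefore depended on how libraries were adjusted. With the batch term 3 of the 10 genes were higher at 1 h, Dnajb1, Hsp90aa1 and Hspa8, where 8.39% of all genes were called. With the s term 1 was, Dnajb1, where 1.27% were called. The number was also 1 without CT17 library 1s or 2s and without 1 h library 1 or 2. The median change of the 10 genes was 0.29 with the batch term, 0.17 with the s term and 0.10 without the 4 s libraries, beside -0.01 over all genes tested with either term. Without the s libraries the batch term rested on the 2 CT23 libraries alone, so that fit cannot decide the change at 1 h. With the batch term all 10 oligodendrocyte markers were lower at 1 h (summed level 4262 to 6259 CPM, against 7833 to 9192 in the dark at CT17) and with the s term 0 were, with a median change of -0.91 and -0.52 in these fits. Of the 8 markers of neighbouring hypothalamus 2 were higher and 2 lower with the batch term (median -1.64) and 0 with the s term (median -0.38), and their summed level was 420 to 421 CPM at 1 h against 209 to 403 at CT17. Of the 8 microglia markers 2 were lower with the batch term and 0 with the s term. The part of these markers in the gene levels was not tested. In the Npas4 experiment 0 of the 10 oligodendrocyte markers were called after light in either genotype.

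Hsp90aa1 and Hsp90ab1 encode the inducible and the constitutive cytosolic HSP90. Hsp90aa1 was at 279, 304, 262 and 274 CPM in CT17 libraries 1, 2, 1s and 2s, at 321, 349, 263 and 235 after 0.5 h in the same order, and at 355 and 354 after 1 h. The 0.5 h group overlapped the dark group, its s libraries being lowest, and the 1 h libraries lay above all 8. The change at 1 h was 0.44 ± 0.11 (1.35-fold, adjusted p = 0.0249) with the batch term and 0.20 ± 0.09 (adjusted p = 0.573) with the s term. It was at 300 and 329 CPM at 3 h, 290 and 317 at 6 h and 297 and 327 at CT23, which overlapped one another.

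Hsp90ab1 was at 1665, 1992, 1557 and 1683 CPM in CT17 libraries 1, 2, 1s and 2s, at 1968, 2224, 1628 and 1459.8 after 0.5 h and at 2038 and 2277 after 1 h. Here too the 0.5 h group overlapped the dark group and the 1 h libraries lay above each dark library. The change at 1 h was 0.43 ± 0.14 with the batch term (adjusted p = 0.0692) and 0.17 ± 0.12 with the s term (adjusted p = 0.833). At 3 h it was at 1795 and 2176 CPM, at 6 h at 1696 and 2040.2 and at CT23 at 1811 and 2061.

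Between 0.5 h and 1 h of light, Hsp90aa1 was the 1 gene of the 10 called with the batch term (0.39 ± 0.11, adjusted p = 0.0498), where 7.27% of all genes were called. With the s term 0 were called (Hsp90aa1 0.15, adjusted p = 0.728), where 0.496% were, and without the 4 s libraries its change was -0.06. In the fit without the s libraries the batch term rested on the 2 CT23 libraries alone. The call was also lost without 0.5 h library 1, 1s or 2s and without 1 h library 1 or 2. Dnajb1 changed by -0.23 ± 0.10 over this step (adjusted p = 0.152).

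At 3 h 1 of the 10 genes was lower than at CT17 with the batch term (11.5% of all genes called in either direction) and 2 with the s term (3.24%), as given for Dnajb1 and Hspa1b. At 6 h against CT23 none was called (edgeR, 1 at an unadjusted p under 0.05, 0 by DESeq2), with 1.01% of all genes called with the batch term and 1.41% with the s term. At CT23 against CT17 Dnajb1 alone was called with the batch term (0.475% of all genes) and none with the s term (0.269%), while without CT23 library 1 Hsp90aa1 was called as well, as higher (0.36, adjusted p = 0.0477). From 1 h to 3 h Dnajb1 alone was called with both (1.09% and 1.53%).

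**Figure D3:**
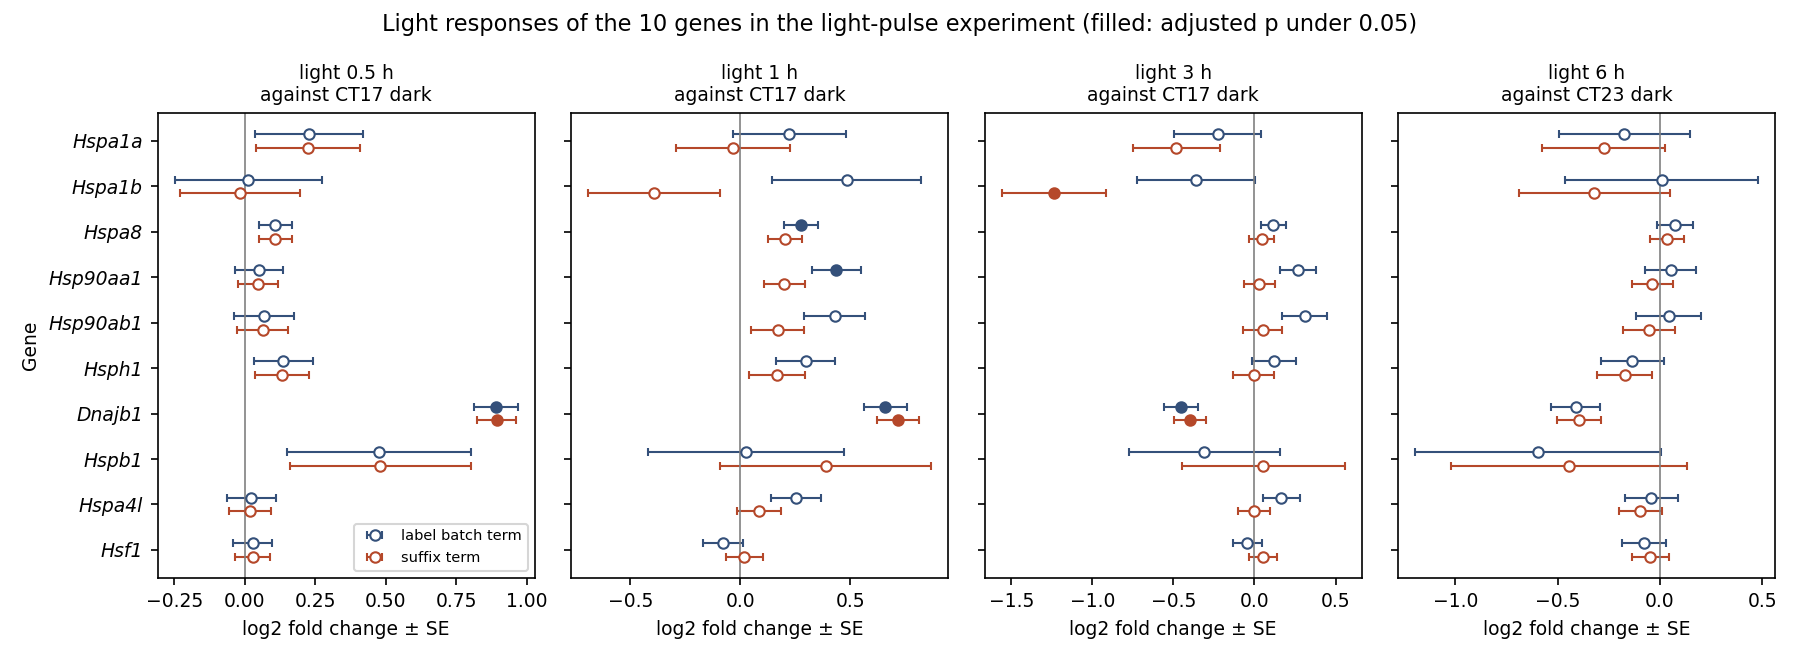
Log2 fold changes with standard errors in the light-pulse experiment, with the batch term (blue) or the s term (red). Filled points passed an adjusted p under 0.05. Dnajb1 is filled with both terms at 0.5 h, 1 h and 3 h, whereas Hspa8 and Hsp90aa1 are filled at 1 h with the batch term only and Hspa1b at 3 h with the s term only.

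Hsph1 and Hspa4l encode HSP110 proteins, the nucleotide exchange partners of HSP70. Hsph1 was at 482, 566, 515 and 533 CPM in CT17 libraries 1, 2, 1s and 2s, at 610, 677, 534 and 489 after 0.5 h and at 627 and 624 after 1 h. The s libraries at 0.5 h overlapped the dark group, and the 1 h libraries lay above it. The changes were 0.14 ± 0.11 at 0.5 h and 0.30 ± 0.14 at 1 h (adjusted p = 0.179, and 0.862 with the s term). At 3 h Hsph1 was at 489 and 618 CPM, at 6 h at 427 and 527 and at CT23 at 493 and 582.

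Hspa4l was at 355, 378, 339 and 354 CPM in CT17 libraries 1, 2, 1s and 2s, at 426, 390, 324 and 317 after 0.5 h and at 419 and 397 after 1 h. At 0.5 h it was again higher in the libraries without an s and lower in those with one than in any dark library. It was at 357 and 410 CPM at 3 h, 326 and 371 at 6 h and 340 and 404 at CT23, and it passed no comparison.

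Hspb1, a small heat shock protein that holds unfolded clients without ATP, was at 0.60, 0.82, 1.00 and 1.72 CPM in CT17 libraries 1, 2, 1s and 2s and at 0.84, 2.18, 1.37 and 1.57 after 0.5 h. It was at 0.84 and 1.57 CPM at 1 h, 1.19 and 0.73 at 3 h, 0.80 and 0.49 at 6 h and 0.88 and 0.87 at CT23. The groups overlapped at 0.5 h, 1 h and 3 h, and the interval of the change at 0.5 h ran from -0.22 to 1.17, too wide at this depth to show a change of moderate size. The Npas4 experiment had it at 3.84, 2.23 and 3.72 CPM in wild-type dark libraries, 5.19, 3.62 and 3.57 after light, 5.05, 4.33 and 3.77 in null dark libraries and 4.76, 3.56 and 4.37 after light, with overlap throughout.

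**Figure D4:**
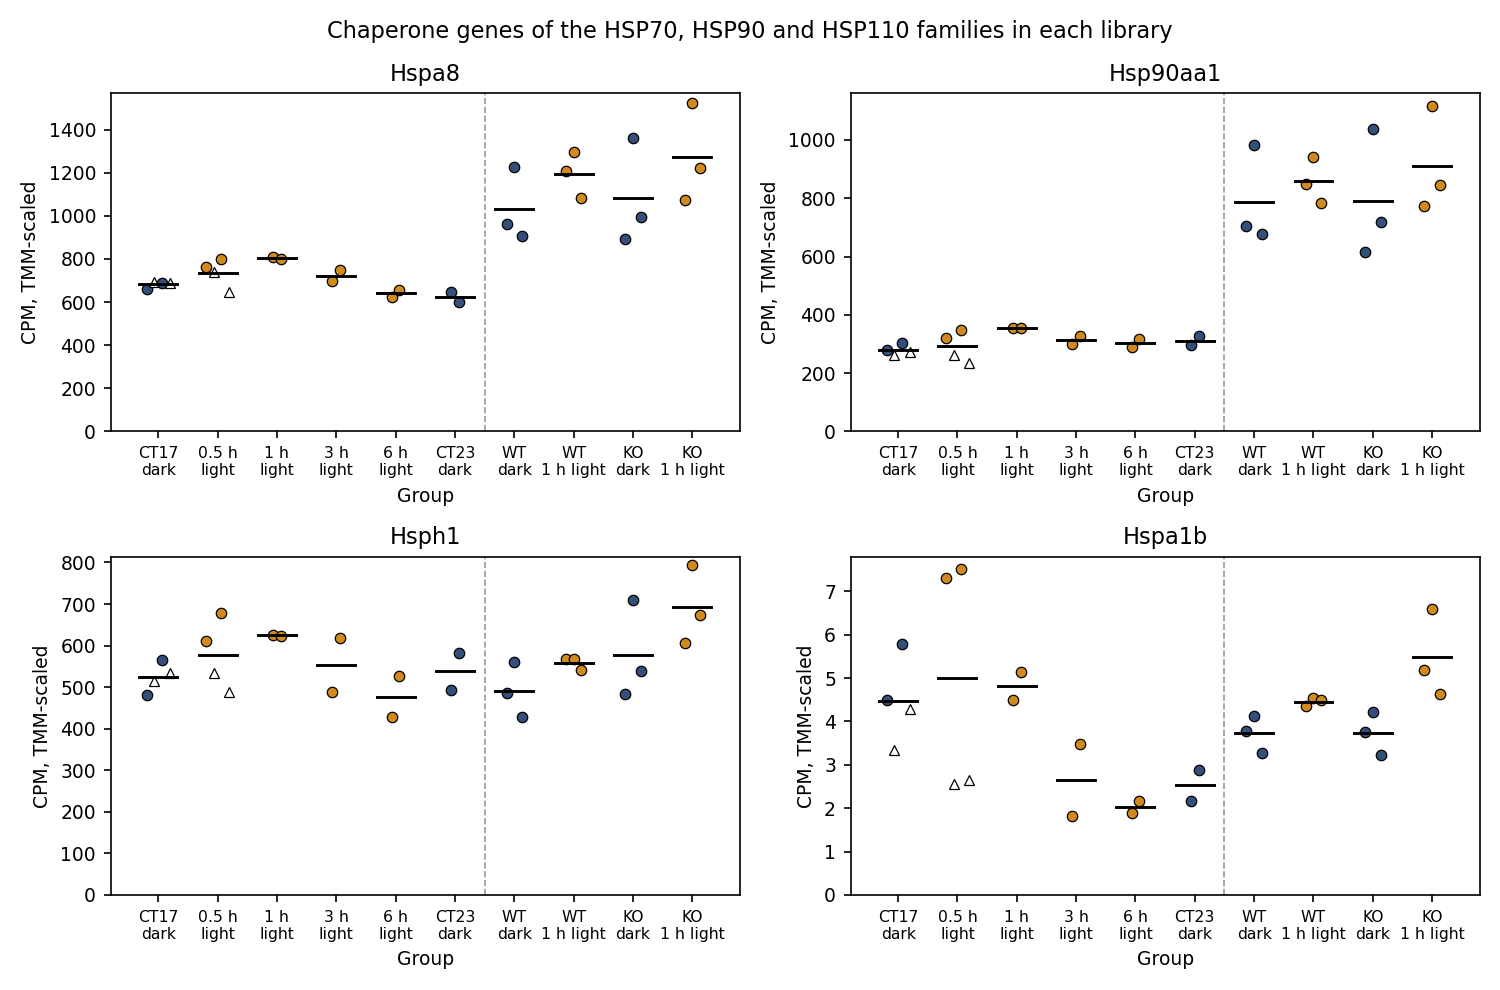
TMM-scaled CPM of Hspa8, Hsp90aa1, Hsph1 and Hspa1b in each library (points) with group means (bars), coloured as in the plot of Dnajb1. At 0.5 h the open triangles (s libraries) lie below the filled points for each of these 4 genes, for Hspa1b at 2.57 and 2.66 against 7.32 and 7.51 CPM.

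The abundant chaperones varied together between libraries of one group. At 0.5 h the s libraries lay below the others for 7 of the 10 genes, by a log2 difference of -1.46 for Hspa1b, -0.44 for Hsp90ab1 and -0.43 for Hsp90aa1, whereas Dnajb1 and Hspb1 overlapped between the 2 kinds of library and Hsf1 was higher in the s libraries by 0.12. At CT17 the s libraries were lower for 3 genes and higher for 4, among them Dnajb1 by 0.20. The share of all genes that separated in this way is not given here, so these counts are not read as particular to the 10 genes.

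In the Npas4 experiment, the library numbered 2 was the highest of its group in all 4 groups for Hspa1a, Hspa1b, Hspa8, Hsp90aa1, Hsp90ab1 and Hspa4l, in 3 groups for Hsph1, in 2 for Dnajb1 and in 0 for Hspb1 and Hsf1. Hsp90aa1, for example, was at 703, 982 and 679 CPM in wild-type dark libraries 1, 2 and 3, at 847, 942 and 783 after light, at 617, 1036 and 719 in null dark libraries and at 773, 1115 and 846 after light. Hsp90ab1 followed it, at 1333, 1841 and 1273, at 1589, 1771 and 1442, at 1136, 1888 and 1297 and at 1431, 2057 and 1483 CPM in the same order. The spread within each group was larger than the difference between lit and dark groups for both genes, whose changes were 0.12 ± 0.20 and 0.11 ± 0.20 in wild-type libraries. How many of all genes were highest in library 2 in this way is not given here. These counts of groups are therefore not read as particular to the heat shock genes.

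Hspa8 was at 961, 1228 and 907 CPM in wild-type dark libraries, 1209.6, 1296 and 1081 after light, 891, 1359 and 995 in null dark libraries and 1072, 1522 and 1224 after light. Hsph1 was at 486, 559 and 429, at 568, 568 and 541, at 483, 710 and 538 and at 607, 795 and 674 CPM in the same order. Hspa4l ran from 302 to 394 CPM in the dark and from 344 to 422 after light over both genotypes. For Hspa8, Hsph1 and Hspa4l the null dark library 2 lay above at least 1 lit null library, so that lit and dark overlapped there, and none passed the test. Library 2 also stood above the others for other lists. The median deviation from the group mean was 0.13 to 0.21 (log2) in the 4 libraries numbered 2 and -0.17 to -0.02 in the other 8 for the 8 astrocyte markers, and 0.05 to 0.14 against -0.15 to 0.01 for the 15 chaperones of the endoplasmic reticulum (ER). Their part in the gene levels was not tested.

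**Figure D5:**
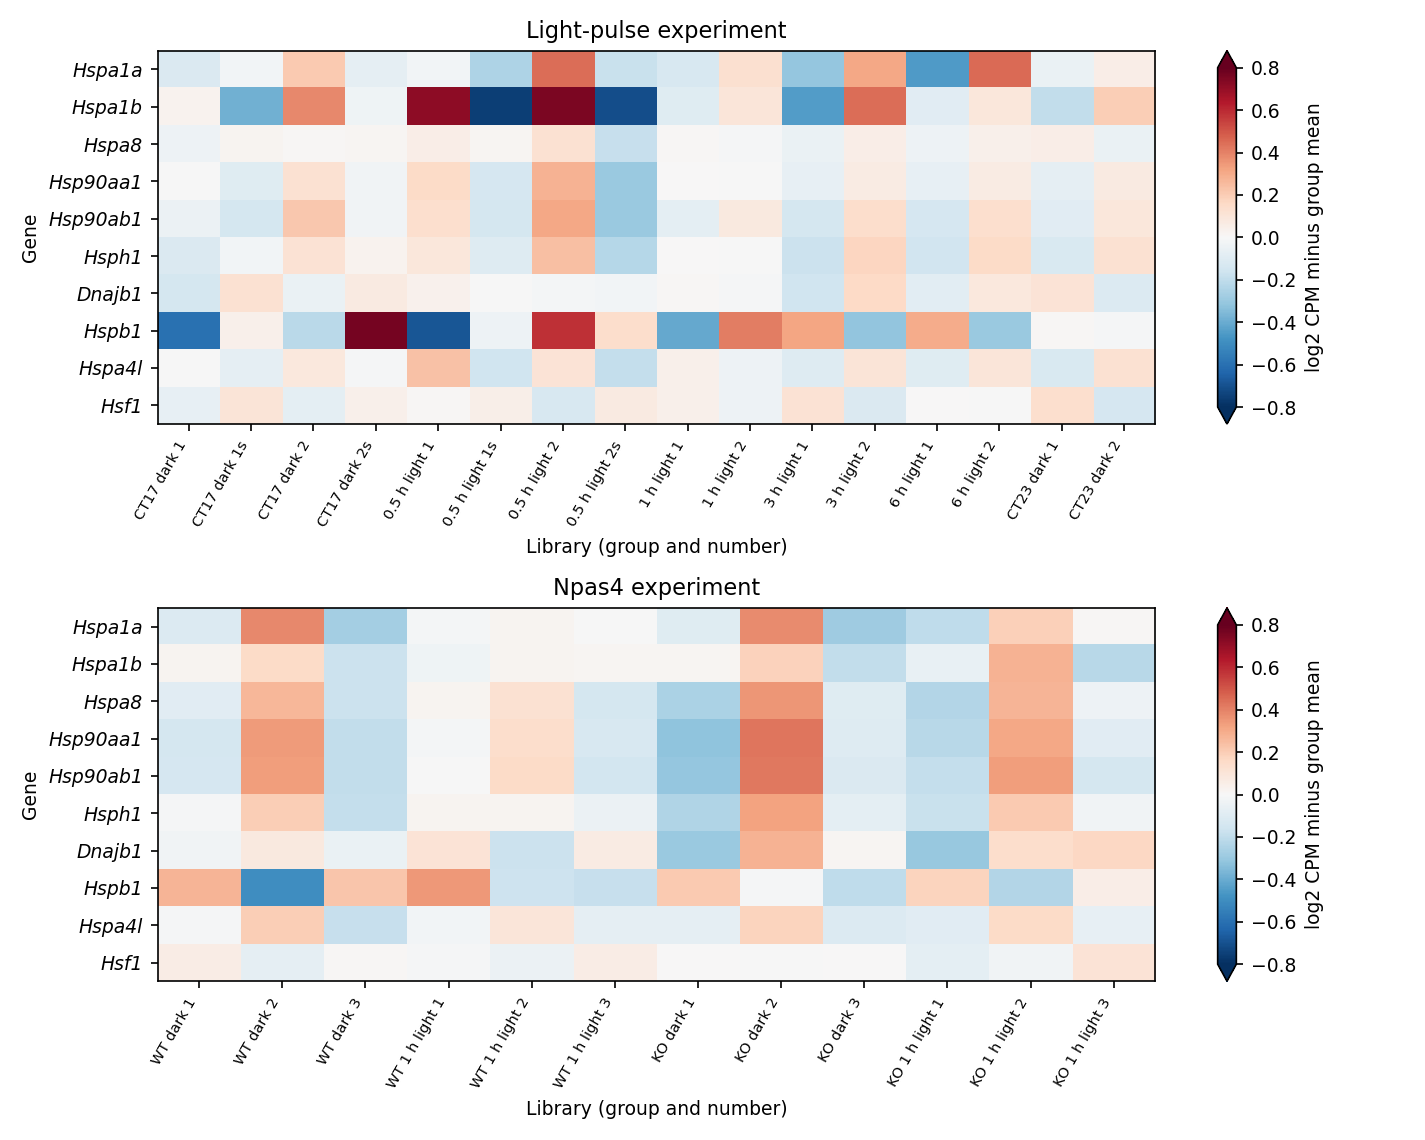
Deviation of each gene from its group mean (log2 CPM, red above and blue below, colours saturating at 0.8) in each library of the light-pulse experiment (top) and the Npas4 experiment (bottom). Columns of 1 colour show libraries in which Hspa8, Hsp90aa1, Hsp90ab1 and Hsph1 are high or low together, such as those numbered 2 in the lower panel, while Hsf1 and Hspb1 follow another pattern.

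The genes most like each member over the 28 bulk libraries, by Pearson's r of log2 CPM centred within each experiment and among 14476 genes, differed between Dnajb1 and the abundant chaperones. These values describe libraries that share light, group and sample quality. For Dnajb1 the nearest were Cyr61 (r = 0.904), Tob1 (0.901) and Egr4 (0.885), which are known as early-response genes. For Hsp90aa1 they were Cct3 (0.963), a subunit of the cytosolic chaperonin, the ER chaperone Hsp90b1 (0.957) and Cct7 (0.954). Hsp90ab1 was nearest Hsp90b1 (0.963), and Hspa8 and Hsph1 were nearest Stip1 (0.909 and 0.908), the adaptor that joins HSP70 to HSP90. Hspa1a was nearest Hexim1 (0.851), Hspa1b P4ha1 (0.845), Hspa4l Hsp90b1 (0.888), Hspb1 Sult1a1 (0.801) and Hsf1 Gga3 (0.842).

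Of the partner genes in the chaperone network, 0 of 19 J-domain and HSP70 cofactors were called at 0.5 h, as were 0 of 14 HSP90 cofactors, 0 of 4 tested small heat shock genes, 0 of 13 chaperonin and prefoldin genes and 0 of 15 ER chaperones (edgeR, either term). Over all genes tested 0.441% were called at 0.5 h with the batch term and 0.468% with the s term. Counts of 0 in lists of this size are near that share. Dnajb5, another HSP40 gene, was at 65.9, 60.02, 79.3 and 82.5 CPM in CT17 libraries 1, 2, 1s and 2s and at 134 and 116 after 1 h (0.68 ± 0.13, adjusted p = 0.00665, and 0.99 ± 0.11 with the s term). In wild-type littermates it was at 70.3, 67.7 and 70.1 CPM in the dark and 196, 161 and 201 after light, without overlap (1.42 ± 0.11, adjusted p = 4.90e-06). In libraries labelled null it was at 76.7, 83.1 and 89.0 and at 143, 183 and 188 CPM (1.05 ± 0.11, adjusted p = 0.000133). At 0.5 h Dnajb5 stood at 85.6, 69.97, 101 and 99.2 CPM in libraries 1, 2, 1s and 2s. Over all libraries this group overlapped the dark group, and the change did not pass the test. Among libraries without an s, and among those with one, each lit library lay above each dark library.

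Bag3, a cochaperone that directs HSP70 clients to autophagy, was at 16.2, 16.3 and 14.3 CPM in wild-type dark libraries and 25.97, 23.9 and 22.99 after light. It was higher by 0.64 ± 0.08 on the log2 scale in wild-type (adjusted p = 0.000237) and by 0.61 ± 0.08 in null libraries (adjusted p = 0.000603). In the light-pulse experiment it was higher at 3 h with both terms (0.86 ± 0.11 and 0.47 ± 0.11) and at 1 h with the batch term only (0.68 ± 0.11). Unc45a, a chaperone partner of HSP90 that folds myosin, was higher at 1 h in both experiments, by 0.38 ± 0.08 with the batch term, 0.44 ± 0.08 with the s term, 0.35 ± 0.06 in wild-type and 0.26 ± 0.06 in null libraries.

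Over the 19 J-domain and HSP70 cofactors, 2 were higher after 1 h of light in each genotype and 0 lower, with a median change of 0.02 and 0.05. In the light-pulse experiment 4 were higher at 1 h with the batch term and 1 with the s term. Over all genes tested the share called in either direction was 8.39% and 1.27% in these fits and 2.57% and 1.56% in the wild-type and null libraries. Of 14 HSP90 cofactors, 1 was higher in each genotype, and 2 (batch term) or 1 (s term) at 1 h. Of 13 chaperonin and prefoldin genes 2 were higher at 1 h with the batch term, 0 with the s term and 0 in either genotype. Among 15 ER chaperones 0 were called at 1 h in any of these fits, and at 3 h 2 were lower with both terms, Sdf2l1 and Manf. At 3 h 11.5% of all genes were called with the batch term and 3.24% with the s term. With the batch term 2 of 15 is near that share. Of the mitochondrial chaperones 0 of 8 and of the other heat shock factors with their binding protein 0 of 5 were called at 0.5 h, 1 h, 3 h or 6 h. With the batch and the s term, 0.441% and 0.468% of all genes were called at 0.5 h and 1.01% and 1.41% at 6 h. Of the 4 tested small heat shock genes other than Hspb1, 2 were lower at 1 h (Cryab and Hspb6) and 3 at 3 h (these and Hspb8, -0.46 ± 0.11) with the batch term, and 0 and 1 (Hspb8, -0.44 ± 0.11) with the s term. Cryab, a small heat shock gene that oligodendrocytes also express, was lower at 1 h with the batch term (-0.96 ± 0.16, adjusted p = 0.003) and not with the s term (-0.38, adjusted p = 0.17), as were the oligodendrocyte markers. Of the cold-inducible pair, Rbm3 was higher and Cirbp lower after light in wild-type littermates, with changes of 0.33 ± 0.06 and -0.34 ± 0.08, and in the light-pulse experiment neither passed at 0.5 h, 1 h, 3 h or 6 h.

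Chromatin immunoprecipitation, from 2 pairs of SCN per condition, gave 1 library for each mark in the dark and after 1 h of light, so that peak lists have no replicate check. Folds are the authors' values. Peaks of H3K4me3, a mark of active starts, overlapped all 8 windows of the 6 genes in both lists, where 46.3% (dark) and 44.9% (light) of all windows did. Peaks of H3K27ac, which marks regulatory elements in use, overlapped 6 of the 8 in the dark and 4 after light, beside 23.9% and 22.8% of all windows. At Dnajb1 the H3K27ac peak lay over the second window, at chr8:83608299-83609319 with a fold of 11.4 in the dark and at chr8:83608311-83608848 with a fold of 5.69 after light. Before the first window the dark list had a peak at chr8:83607397-83607844 with a fold of 4.37, and the light list had peaks at chr8:83607318-83607529 (fold 4.22) and chr8:83607599-83607895 (fold 6.89).

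The H3K27ac peaks at Hspa1a (fold 6.16) and Hspa1b (6.40) were listed in the dark only, each touching the upstream end of its window. Hspb1 had no H3K27ac peak in its window in either list, and its H3K4me3 folds were 6.00 and 9.39. Hsph1 had H3K27ac folds of up to 12.3 in the dark and 6.63 after light. Over the window of Hspa4l they were 6.54 and 4.83, and the top folds within 1000 bases of that gene were 12.0 and 7.30. Within 1000 bases of the genes without a window, the top H3K27ac folds in the dark and after light were 20.5 and 15.2 at Hspa8, 17.5 and 11.6 at Hsp90aa1, 19.3 and 16.7 at Hsp90ab1, and 7.99 and 3.77 at Hsf1. The median fold of all H3K27ac peaks was 5.55 in the dark and 5.18 after light. At each of these genes with a H3K27ac peak in both lists the top fold in the dark was above the top fold after light, and with 1 library each a difference between lists and one between conditions cannot be told apart.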

How the data were processed

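Raw counts per gene and RPKM were deposited by the authors for 16 light-pulse and 12 Npas4 libraries. Build mm10, MACS2 2.1.1, the aligner STAR (2.5.2b and 2.7.1a) and the counters featureCounts 1.6.2 and HTSeq 0.9.1 are named in the submitters' processing notes without a role, so which tool made which table is not given in the sources used here. The deposited RPKM equal the deposited counts divided by gene length and library total. Deposited peak lists, 1 library each, give the authors' fold over background as a ratio and -log10 of the q-value.

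The quasi-likelihood F-test of edgeR 4.0.16 (R 4.3.3, filterByExpr, TMM) was run on the counts, in 1 fit of the 6 light-pulse groups with a term for the labelled batch and 1 fit of the 4 groups of the Npas4 experiment. P-values were adjusted (Benjamini-Hochberg) over all genes tested, and values under 0.05 were called. Errors of log2 changes are standard errors and intervals are 95%. CPM are counts scaled to a common library size after TMM. Libraries 1 and 1s, and 2 and 2s, differed beyond counting noise (chi-square over its degrees of freedom 10.4 to 30.3) and were kept apart. The tests were checked on simulated counts. Alternatives were the s term, DESeq2 1.42.0, other size factors, no filter, no batch term, 1 batch, a replicate block and leaving out libraries.

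The 10 genes and all lists were chosen with earlier results of these data known. Of the other lists at most 4 called genes per list and comparison were named, those with the largest changes. Promoter windows are RefSeq's, and windows were searched by exact letters. A peak counted as overlapping a window from 1 shared base.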

Additional observations from a re-analysis of the deposited data

Results flagged for a closer look

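In the dark controls at CT17 (n = 4), Hspa8 in library 1 was at 662.6 CPM, apart from the other 3 libraries, which lay between 687 and 691. The gap is large only beside the narrow range of those 3, and chance flags about 1 in 20 groups of this size.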

How the results depend on the processing

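The number of the 10 genes called was the same or within 1.5 times under the alternatives run for 0.5 h, for 3 h against 1 h, for light in wild-type littermates and for the 3 comparisons of genotype. At 1 h against CT17 (3 called) it was 1 with no batch term, with the s term and without the 4 s libraries, and 1 to 2 without single libraries. At 3 h against CT17 (1) it was 2 with the s term, 0 without the s libraries and 0 to 1 without single libraries. At CT23 against CT17 (1) it was 0 with the s term and without the s libraries and 0 to 2 without single libraries. For 1 h against 0.5 h (1) it was 0 with DESeq2's size factors in edgeR, with no filter on low counts, with no batch term, with the s term and without the s libraries, 4 in label batch 2 alone, and 0 to 1 without single libraries. At 6 h against CT23 (0) it was 0 to 1 without single libraries. For light in null mice (1) it was 0 with only the groups compared and 0 to 1 without single libraries. Without the s libraries only the 2 CT23 libraries linked the batches, so 1 h, 3 h and CT23 against CT17, and 1 h against 0.5 h, are poorly determined there. The change of Hsp90aa1 from 0.5 h to 1 h turned to -0.061 without the s libraries (adjusted p = 0.978). The cause of these shifts was not tested.

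Of the 760 single-gene values without single libraries, 733 kept their side of the threshold, 25 lost and 2 gained a call, and of the 733 there were 93 that changed sign. Of 870 under other settings 841 kept their side, 62 of these with a change of sign, 17 lost and 11 gained a call, and 1 value called at first reversed.

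With the replicate block, the calls were 3 for light in null mice (Hspa1a and Hspa1b beside Dnajb1), 2 at 3 h and 2 for 1 h against 0.5 h. Same-numbered libraries deviated together in 16 of 18 pairs of the Npas4 experiment (r over 0.1, lowest -0.01) and in 20 of 32 of the light-pulse experiment. The median r was 0.20 for same-numbered and -0.11 for other pairs of the Npas4 experiment. Deviations were taken from the group mean, so positive values for same-numbered pairs push the others below. Between groups of 2 libraries both same-numbered pairs have the same r, so the 20 of 32 counts some values more than once. The labels do not say that a number marks shared animals or a shared day, and not every pair exceeded 0.1, so the block was kept as an alternative. In null mice 8 of the 10 genes had an unadjusted p under 0.05 with it and 3 without it. Counts under 10 CPM limit Hspa1a, Hspa1b and Hspb1.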
